A study of Mus musculus with 16 samples.

Results

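The 10 genes described here are Krt7, Krt19, Krt23, Sox9, Bicc1, Epcam, Prom1, Cd24a, Tnfrsf12a and Hes1, which are used as markers of bile duct cells and of liver progenitor cells. They were taken by symbol from the 54838 genes of the deposited mouse liver count table, and all 10 were found. RNA was sequenced from tumor tissue and from the liver around it (peri-tumor tissue) in 16 libraries from 8 mice. All mice carried HrasG12V, an activated form of the Ras oncogene. The 4 groups were peri-tumor and tumor tissue of control mice and peri-tumor and tumor tissue of mice given a decoction of traditional Chinese medicine (TCM), with 4 libraries in each group. Animal codes in the labels tie 1 peri-tumor and 1 tumor library to each mouse, so the replicates of a group are separate mice. A time of 3 months stands in the titles, and it is unclear if it means the age of the mice or how long they were treated. The protocol text names Ras-transgenic and DEN-treated animals together, and the labels do not state if these mice received DEN, a liver carcinogen. Strain, sex, the promoter behind the transgene and the composition of the decoction are not stated there either. The series asks how the decoction acts on liver tumors, and the comparisons below set tumor against peri-tumor tissue and treated against control mice.

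Cholangiocytes are the epithelial cells that line bile ducts, and hepatocytes are the main cells of the liver. Both lineages arise from a common fetal progenitor, and Notch signaling with the transcription factor Sox9 directs progenitors toward the biliary fate. In injured or tumor-bearing liver, hepatocytes and duct-like cells can express such genes without forming ducts. Biliary keratins (Krt7, Krt19 and Krt23) build the intermediate filaments of the cell, and Epcam, Prom1 (CD133) and Cd24a encode surface proteins used to sort progenitor cells. Bicc1 is an RNA-binding protein needed for normal tubules and ducts. Tnfrsf12a (Fn14) is the receptor for the cytokine TWEAK, and Hes1 is a repressor switched on by Notch.

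The libraries held 13947483 to 16194224 counts. Levels are given as CPM, counts scaled to library size with TMM factors, and differences are log2 fold changes with a standard error (SE). A gene was called where its p was under 0.05 in edgeR's quasi-likelihood test after Benjamini-Hochberg adjustment over the 14865 genes tested. The SE was back-calculated from that test, as the absolute log2 fold change divided by the square root of its F value. All 15 hepatocyte markers were detected in each group, with a summed level of 79600 to 184000 CPM per library, which matches the liver label. In whole tissue, fewer cells of a type and less RNA per cell cannot be told apart. Of the 10 genes, 9 passed the filter on low counts, and Krt7 did not.

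In the mouse assembly GRCm38 with GENCODE M21 genes, Krt19 lies at chr11:100140810-100148665 on the minus strand and Krt23 at chr11:99477974-99493137, also minus. Krt7 lies at chr15:101411043-101430313 (plus), Sox9 at chr11:112782224-112787760 (plus) and Bicc1 at chr10:70922832-71159700 (minus). Epcam lies at chr17:87635979-87651129 (plus), Prom1 at chr5:43993620-44102032 (minus) and Cd24a at chr10:43578284-43584265 (plus). Tnfrsf12a lies at chr17:23675445-23677468 (minus) and Hes1 at chr16:30064384-30067796 (plus). All 10 are protein-coding. Genes on the opposite strand overlap Krt7, Bicc1 and Prom1 (Gm671, 4930533K18Rik and Gm16401, with at most 1, 2 and 15 counts in a library). The library kit keeps strand, and the strand used in counting is not stated in the labels. Of the 50-base words of Cd24a, 3.9% also occur in other genes, and none of those of the other 9 genes do.

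Promoter sequences (RefSeq, GRCm38.p6) were on hand for 5 of the 10 genes, with 2 start sites for Prom1. The 250 bases before the start are shown for Prom1 and Tnfrsf12a, which rose strongly in tumors of both treatments, and for Krt23, which was also higher in treated mice. Capitals mark matches to the AP-1 motif TGANTCA, and the remaining letters are lower case.
Prom1, first start (chr5:44101737-44101986, minus strand): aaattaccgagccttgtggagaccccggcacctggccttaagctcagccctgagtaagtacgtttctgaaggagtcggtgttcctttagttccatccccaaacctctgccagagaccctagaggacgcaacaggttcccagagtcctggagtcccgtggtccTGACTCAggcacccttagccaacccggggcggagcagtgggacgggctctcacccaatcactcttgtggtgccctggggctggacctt
Prom1, second start (chr5:44094769-44095018, minus strand): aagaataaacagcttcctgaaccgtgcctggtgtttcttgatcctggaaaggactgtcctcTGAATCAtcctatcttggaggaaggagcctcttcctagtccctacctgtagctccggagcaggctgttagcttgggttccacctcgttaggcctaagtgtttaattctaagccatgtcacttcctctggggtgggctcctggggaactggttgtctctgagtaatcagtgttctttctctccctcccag
Tnfrsf12a (chr17:23677450-23677699, minus strand): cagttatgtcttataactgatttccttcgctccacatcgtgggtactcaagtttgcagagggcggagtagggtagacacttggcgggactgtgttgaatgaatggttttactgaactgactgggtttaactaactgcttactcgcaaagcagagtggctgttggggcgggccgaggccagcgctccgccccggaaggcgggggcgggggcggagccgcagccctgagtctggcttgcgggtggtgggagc
Krt23 (chr11:99493121-99493370, minus strand): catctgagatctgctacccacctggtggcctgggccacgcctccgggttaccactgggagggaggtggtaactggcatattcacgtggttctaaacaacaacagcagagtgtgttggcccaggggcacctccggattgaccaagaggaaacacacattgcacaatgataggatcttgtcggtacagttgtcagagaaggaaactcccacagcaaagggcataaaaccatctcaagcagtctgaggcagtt
The 3 motifs RBPJ (GTGGGAA), AP-1 (TGANTCA) and TEAD (CATTCC) were searched on both strands of these windows and those of Krt7 and Epcam. The RBPJ motif ends in GGAA, which the reverse complement of the TEAD motif begins with, so a stretch of sequence can match both. They occur in 5.42%, 6.75% and 12.6% of the 250-base windows of 32851 RefSeq promoters. Prom1 held 1 AP-1 match at each start, 88 bases before the first and 189 bases before the second. The other 4 genes had no match to any of the 3 motifs in this window.

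In control mice the markers did not move as a block between peri-tumor liver and tumors. Prom1, Bicc1, Tnfrsf12a, Krt23, Cd24a, Hes1 and Sox9 rose, Krt19 fell, and Epcam was not called. Thus 7 of the 9 tested genes rose and 1 fell, where 43.2% of all tested genes were called, 22.0% higher and 21.2% lower. The library ranges of the 2 tissues did not overlap for 9 of 9 members, where they did not for 38.9% of all tested genes. The median log2 fold change was 2.6 for the 9 genes and 0.001 for all tested genes. In TCM mice 5 of 9 rose (Prom1, Bicc1, Tnfrsf12a, Hes1 and Sox9) and none fell, where 32.9% of all tested genes were called, 17.3% higher and 15.6% lower. Ranges did not overlap for 7 of 9, against 33.9% of all tested genes. The median log2 fold change was then 1.26, against 0.0043 for all tested genes. The edgeR count of falling members at an unadjusted p under 0.05 was also 0 in TCM mice, as were those called by DESeq2 and limma-voom.

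**Figure D1:**
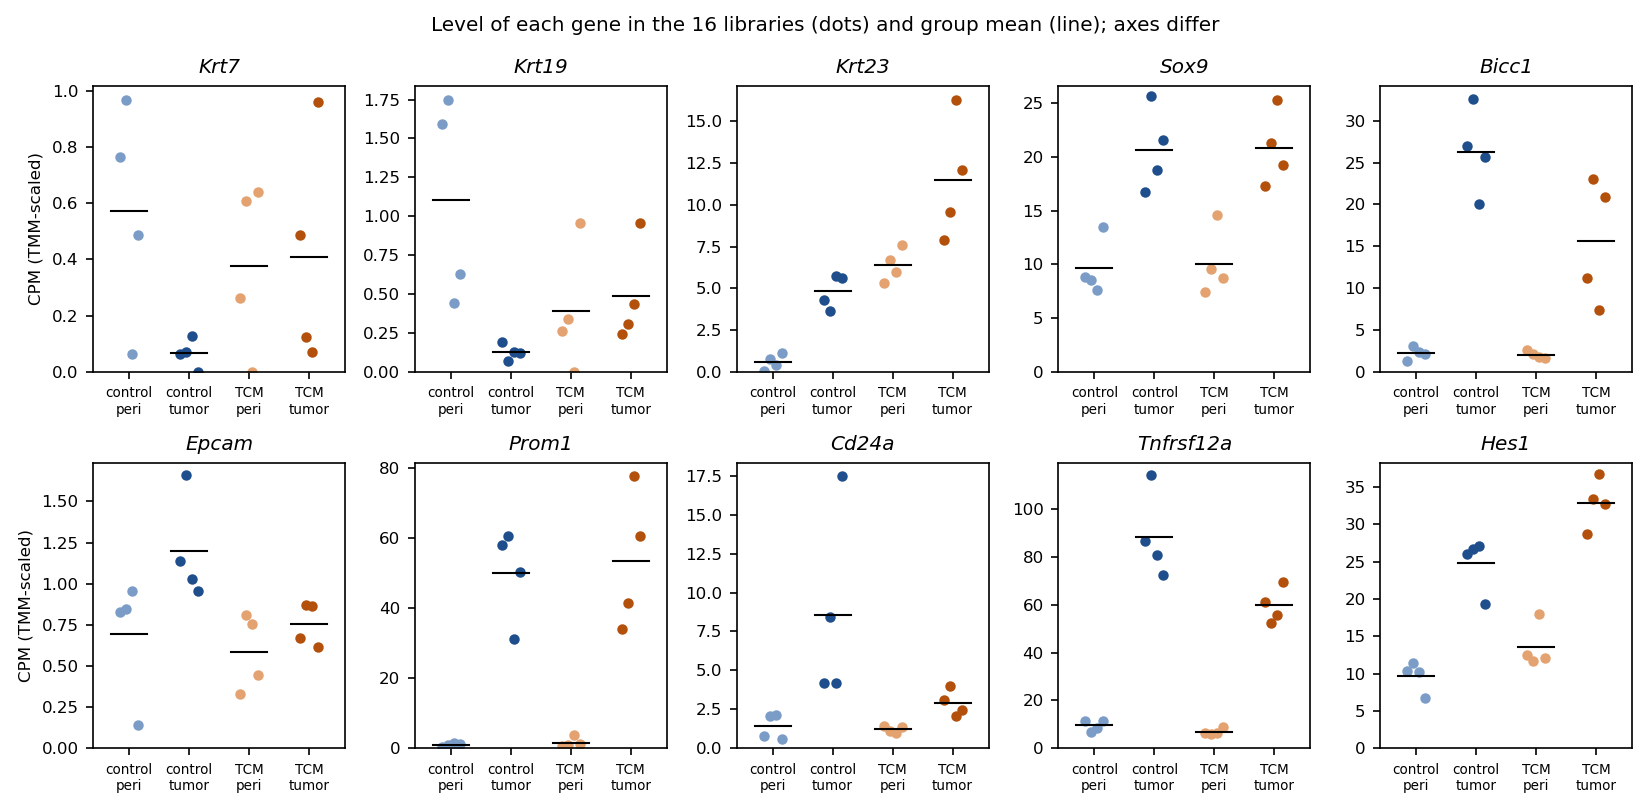
TMM-scaled CPM (vertical axis, from 0, a different range in each panel) of the 10 genes in the 4 groups (horizontal axis); dots are libraries, lines are means of 4. Prom1, Bicc1 and Tnfrsf12a are high in all 8 tumor libraries, and Krt23 is near 0 only in control peri-tumor tissue. The means of Krt7 and Krt19 are lowest in control tumors.

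Of the biliary keratins, Krt19, the usual marker of bile duct epithelium, was scarce in every group. Its level in control peri-tumor tissue was 1.59, 1.75, 0.445 and 0.628 CPM in mice 1 to 4, and in the matching control tumors 0.19, 0.0693, 0.129 and 0.119 CPM. All 4 control tumors lay below all 4 peri-tumor libraries, on 8 counts in total against 70. The gene fell with a log2 fold change of -3.04 ± 0.77 SE (adjusted p = 0.00481 in edgeR's quasi-likelihood test). The ratio of the counts, peri-tumor over tumor, was 8.78, with a 95% interval of 4.22 to 21.1 that covers counting error only. In TCM mice Krt19 had 0.264, 0.337, 0 and 0.959 CPM in peri-tumor tissue and 0.243, 0.31, 0.433 and 0.958 CPM in tumors. These ranges overlapped, and the difference was 0.26 ± 0.71 (adjusted p = 0.813, edgeR), with the sign turned without TCM peri-tumor 3 (-0.12) or TCM tumor 4 (-0.28).

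Krt7, the other classical duct keratin, ran along with Krt19 at still lower counts. It had 12, 16, 1 and 7 counts in control peri-tumor libraries and 1, 1, 2 and 0 in control tumors, a ratio of 9.03 (95% counting interval 3.24 to 34.9). The library ranges overlapped, since control peri-tumor 3 (0.0636 CPM) lay below control tumors 2 (0.0693 CPM) and 3 (0.129 CPM). TCM peri-tumor libraries had 4, 9, 0 and 10 counts and TCM tumors 8, 2, 1 and 14. With no filter on low counts, Krt7 was tested and fell in control tumors (-3.02 ± 1.03, adjusted p = 0.0437, edgeR), with 0.09 ± 0.86 in TCM tumors (adjusted p = 1.0). TCM tumor 4 held the highest level of both keratins among tumors, 0.958 CPM each. Mesothelial cells, which cover the liver surface, also make these keratins. The summed level of 6 mesothelial markers was 1.08 to 2.3 CPM in control peri-tumor tissue, 0.97 to 2.57 CPM in control tumors, 0.926 to 3.64 CPM in TCM peri-tumor tissue and 0.793 to 9.79 CPM in TCM tumors, with TCM tumor 4 the highest. The 6 markers did not move together in control mice. Msln and Upk1b had 0 counts in all control tumors. Gpm6a, the largest part of the sum there, rose from 0.616 to 1.7 CPM (1.46, adjusted p = 0.021, edgeR). Mean levels in control peri-tumor tissue and tumors were 0.365 and 0.0799 CPM for Upk3b and 0.155 and 0.0158 CPM for Lrrn4. For Wt1 they were 0 and 0.0334 CPM. In TCM tumor 4 Msln had 3.01 CPM. The part of these cells in the keratin levels was not tested.

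Krt23, an acidic keratin seen in stressed and transformed liver epithelium, had a different pattern from the other 2 biliary keratins. Control peri-tumor libraries had 0.0637, 0.786, 0.382 and 1.12 CPM and control tumors 4.31, 3.67, 5.72 and 5.61 CPM. Every control tumor was above every control peri-tumor library, and the gene rose by 3.04 ± 0.42 (adjusted p = 3.39e-05, edgeR), or 8.22-fold. In TCM mice, peri-tumor libraries already had 5.29, 6.68, 5.97 and 7.61 CPM, and tumors had 7.9, 9.55, 16.3 and 12.1 CPM. The 2 tissues did not overlap here either, and the difference of 0.84 ± 0.33 was not called (adjusted p = 0.0653, edgeR). It was called by DESeq2 (0.0199), by limma-voom (0.0182) and with only these 2 groups in the fit (0.0183).

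Sox9, the transcription factor of the biliary and progenitor state, was close to 2-fold higher in tumors whatever the treatment. Control peri-tumor libraries had 8.85, 8.53, 7.63 and 13.5 CPM and control tumors 16.7, 25.7, 18.8 and 21.6 CPM. TCM peri-tumor libraries had 7.4, 9.58, 14.6 and 8.76 CPM and TCM tumors 17.3, 21.3, 25.3 and 19.3 CPM. Tumor and peri-tumor ranges did not overlap in either treatment. Sox9 rose by 1.1 ± 0.22 in control mice (adjusted p = 0.000826, edgeR) and by 1.05 ± 0.22 in TCM mice (adjusted p = 0.00187, edgeR).

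Bicc1 rose in tumors of both treatments. It had 1.34, 3.09, 2.35 and 2.16 CPM in control peri-tumor tissue and 27, 32.6, 20 and 25.7 CPM in control tumors, a rise of 3.55 ± 0.34 (adjusted p = 1.16e-06, edgeR). TCM peri-tumor tissue had 2.58, 2.16, 1.81 and 1.6 CPM and TCM tumors 11.2, 23.1, 7.36 and 20.9 CPM, a rise of 2.94 ± 0.34 (adjusted p = 1.42e-05, edgeR). TCM tumors 1 and 3 lay below all control tumors, while TCM tumors 2 and 4 lay within their range.

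Among the surface markers, Prom1 changed most and Epcam was not called. Prom1 had 0.509, 0.847, 1.53 and 1.19 CPM in control peri-tumor tissue and 58.1, 60.7, 31.2 and 50.3 CPM in control tumors. This 49.0-fold rise, 5.61 ± 0.47 on the log2 scale (adjusted p = 3.42e-07, edgeR), was the largest among the 9 tested members. In TCM mice it had 0.727, 0.877, 3.7 and 1.09 CPM in peri-tumor tissue and 34.1, 41.4, 77.7 and 60.5 CPM in tumors, a rise of 5.09 ± 0.45 (adjusted p = 1.4e-06, edgeR). TCM mouse 3 had the highest Prom1 of its group in both tissues, and without its peri-tumor library the rise was 5.88.

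Cd24a, the mouse gene for the surface protein CD24, depended on 1 tumor for the size of its change. Control peri-tumor libraries had 0.764, 2.06, 2.16 and 0.628 CPM and control tumors 4.18, 8.45, 4.18 and 17.5 CPM. All control tumors were above all control peri-tumor libraries, with a rise of 2.6 ± 0.48 (adjusted p = 0.000412, edgeR). Neutrophils also carry CD24, and the summed level of 5 neutrophil markers was 84.6 CPM in control tumor 4, the library with 17.5 CPM of Cd24a. It was 2.76 to 6.93 CPM in the other control tumors, 6.28 to 10.2 CPM in control peri-tumor tissue, 1.21 to 2.97 CPM in TCM peri-tumor tissue and 1.59 to 5.89 CPM in TCM tumors. All 5 were detected in control tumors, while Ly6g had 0 counts in the other groups. Without control tumor 4 the rise was 1.97 (adjusted p = 0.00119, edgeR), without both libraries of control mouse 4 it was 1.71 (0.00272), and limma-voom gave 1.94 (0.00343). TCM peri-tumor libraries had 1.45, 1.08, 0.982 and 1.34 CPM and TCM tumors 3.1, 4.03, 2.09 and 2.46 CPM. These did not overlap, yet 1.26 ± 0.49 was not called (adjusted p = 0.0606, edgeR). DESeq2 (0.033) and a fit of only these 2 groups (0.00586) called it, as did edgeR without control tumor 4 (0.0217), 1 (0.0494) or 3 (0.0494).

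Epcam, an adhesion protein of ducts and progenitors, had only 2 to 24 counts per library. It had 0.828, 0.847, 0.954 and 0.14 CPM in control peri-tumor tissue and 1.14, 1.66, 1.03 and 0.955 CPM in control tumors. The ranges met without overlapping, and the difference was 0.77 ± 0.42 (adjusted p = 0.15, edgeR). TCM peri-tumor tissue had 0.331, 0.81, 0.756 and 0.448 CPM and TCM tumors 0.668, 0.869, 0.866 and 0.616 CPM, with overlapping ranges and 0.37 ± 0.44 (adjusted p = 0.56, edgeR). A difference as large as that of Sox9 lies within 1 SE of the Epcam value in control mice.

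Of the signaling genes, Tnfrsf12a, the TWEAK receptor, rose in tumors of both treatments. Control peri-tumor libraries had 11.6, 6.72, 8.59 and 11.6 CPM and control tumors 86.7, 114, 80.8 and 72.4 CPM, a rise of 3.2 ± 0.2 (adjusted p = 3.12e-08, edgeR). TCM peri-tumor libraries had 6.21, 5.87, 6.35 and 9.08 CPM and TCM tumors 61, 52.5, 55.8 and 69.6 CPM, a rise of 3.11 ± 0.2 (adjusted p = 9.41e-08, edgeR). Every TCM tumor lay below every control tumor.

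Hes1, the Notch target, had 10.4, 11.4, 10.2 and 6.77 CPM in control peri-tumor tissue and 26, 26.7, 27.1 and 19.4 CPM in control tumors. It rose there by 1.35 ± 0.17 (adjusted p = 1.78e-05, edgeR). TCM peri-tumor libraries had 12.5, 11.7, 18 and 12.1 CPM and TCM tumors 28.7, 33.4, 36.8 and 32.8 CPM, a rise of 1.28 ± 0.17 (adjusted p = 5.05e-05, edgeR). For Hes1 the 4 TCM libraries of each tissue lay above the 4 control libraries of that tissue.

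**Figure D2:**
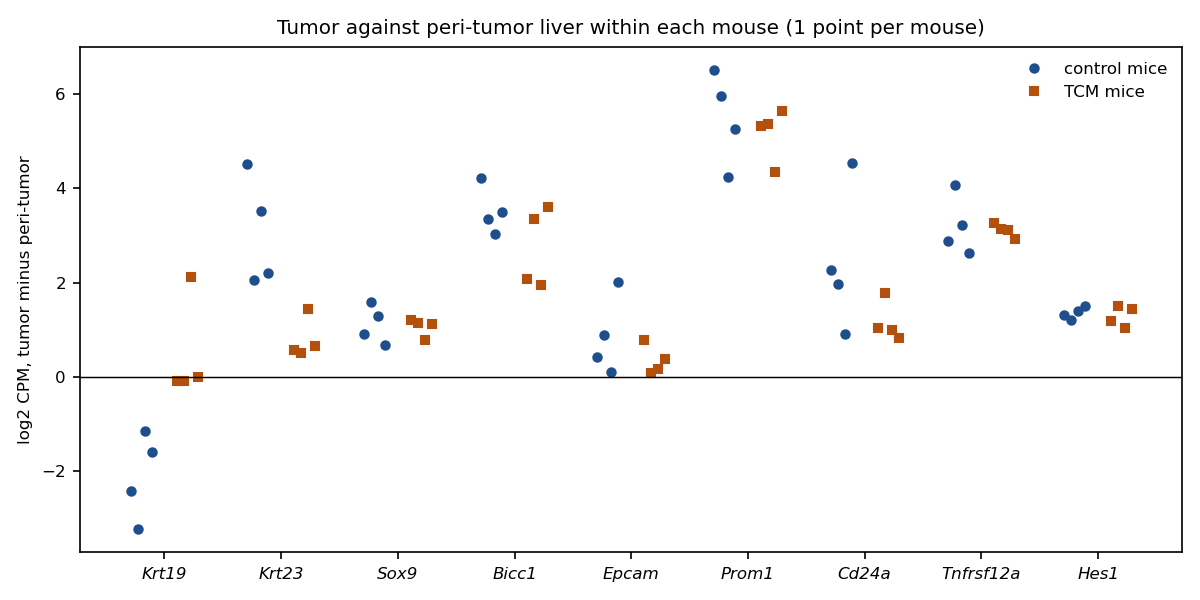
Tumor minus peri-tumor log2 CPM (vertical axis, prior count 2) in each mouse for the 9 tested genes (horizontal axis); circles are the 4 control mice and squares the 4 TCM mice. Prom1, Bicc1 and Tnfrsf12a are at 1.95 or higher in all 8 mice, Krt23 spans 2.05 to 4.51 in control and 0.51 to 1.43 in TCM mice, and Krt19 is below 0 in all control mice.

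Within mice, 8 of the 9 genes were higher in the tumor than in the peri-tumor tissue of all 4 control mice and all 4 TCM mice, and Krt19 was the exception. The log2 difference per mouse was narrow for Hes1, 1.21 to 1.5 in control and 1.03 to 1.51 in TCM mice. It was wide for Cd24a, 0.91 to 4.54 in control mice, with control mouse 4 highest, and 0.82 to 1.78 in TCM mice. Krt19 was lower in the tumor of all 4 control mice (-3.24 to -1.15), and in TCM mice its difference ran from -0.09 to 2.11. With the mouse as a block the same numbers of members were called, 7 up and 1 down in control and 5 up in TCM mice.

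The decoction was compared with control separately in each tissue. In peri-tumor liver 1 of the 9 tested genes rose, Krt23, and none fell, where 14.1% of all tested genes were called, 6.71% higher and 7.35% lower. The edgeR count of falling members was 2 at an unadjusted p under 0.05, and 0 by DESeq2 and by limma-voom. Ranges did not overlap between treatments for 2 of 9, Krt23 and Hes1, against 18.0% of all tested genes. Krt23 rose 10.9-fold, from 0.587 ± 0.46 to 6.39 ± 0.994 CPM (mean ± SD, n = 4), with a log2 fold change of 3.44 ± 0.42 SE (adjusted p = 0.000239, edgeR), and 4.05 by limma-voom. All 4 TCM libraries were at least 5.29 CPM and all 4 control libraries at most 1.12 CPM. Hes1 had 9.69 ± 2.03 and 13.6 ± 2.97 CPM without overlap, a difference of 0.48 ± 0.18 (adjusted p = 0.0772, edgeR; 0.0488 by DESeq2). Krt19 had 1.1 ± 0.664 and 0.39 ± 0.406 CPM with overlap and a difference of -1.46 ± 0.67 (adjusted p = 0.155, edgeR). Sox9, Bicc1, Epcam, Prom1, Cd24a and Tnfrsf12a had overlapping ranges and adjusted p of 0.115 to 0.883.

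In tumors 1 of the 9 rose with the decoction, Krt23, and 1 fell, Cd24a, where 7.28% of all tested genes were called, 4.55% higher and 2.72% lower. Krt23 rose from 4.83 ± 1.0 to 11.5 ± 3.66 CPM, a difference of 1.24 ± 0.34 (adjusted p = 0.0376, edgeR), with all 4 TCM tumors above all 4 control tumors. This call was lost when control tumor 1, 2 or 3, TCM peri-tumor 2 or TCM tumor 3 or 4 was left out, with adjusted p of 0.0514 to 0.123 and differences of 1.03 to 1.36. Cd24a fell from 8.58 ± 6.28 to 2.92 ± 0.849 CPM, a difference of -1.55 ± 0.45 (adjusted p = 0.0479, edgeR). Without control tumor 4, the library high in neutrophil markers, the difference was -0.92 (adjusted p = 0.149), and the call was lost in 12 of the 16 fits that left out 1 library.

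Of the other members, 4 separated the treatments in tumors without being called, Tnfrsf12a, Hes1, Epcam and Krt19. Tnfrsf12a had 88.4 ± 17.9 CPM in control and 59.7 ± 7.45 CPM in TCM tumors, a difference of -0.57 ± 0.18 (adjusted p = 0.0695, edgeR). DESeq2 (0.0354) and limma-voom (0.0139) called it, as did edgeR without control mouse 4 (0.042). Hes1 was higher in all TCM tumors (0.41 ± 0.17, adjusted p = 0.145, edgeR), and Epcam was lower in all of them (-0.66 ± 0.41, adjusted p = 0.347, edgeR). Krt19 too was higher in all 4 TCM tumors, on 29 counts against 8 (1.85 ± 0.83, adjusted p = 0.183, edgeR). With Krt23 and Cd24a this makes 6 of 9, where the ranges of 15.9% of all tested genes did not overlap. Bicc1 had overlapping ranges and a difference of -0.75 ± 0.3 (adjusted p = 0.133, edgeR), called by limma-voom at -0.98 (0.0201). Sox9 and Prom1 had differences of 0.01 ± 0.22 and 0.09 ± 0.35.

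**Figure D3:**
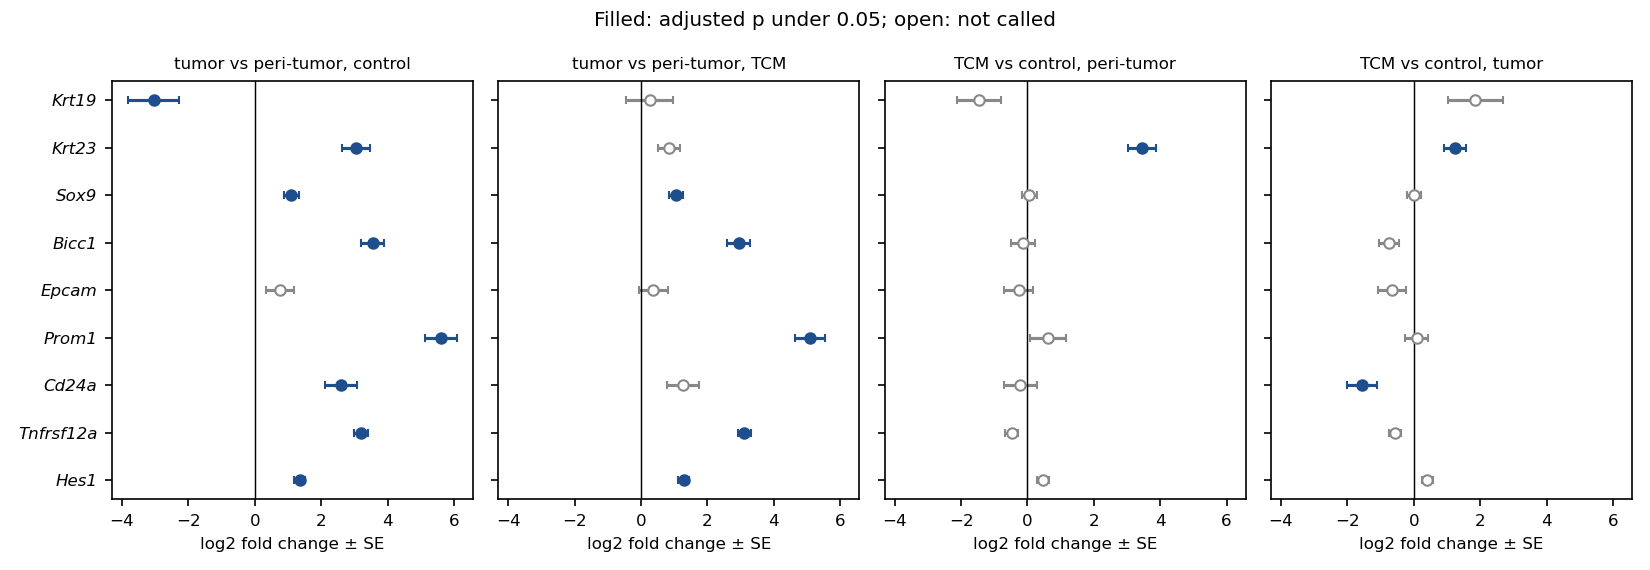
Log2 fold change (horizontal axis) with its SE for the 9 tested genes (vertical axis) in the 4 comparisons; filled points are called and open points are not. A total of 7 genes are called above 0 and Krt19 below 0 in control tumors, 5 above 0 in TCM tumors, and the treatment panels hold 3 called points, Krt23 in both tissues and Cd24a in tumors.

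An interaction term tested if tumors differed from peri-tumor tissue by another amount in treated than in control mice, which uses the same libraries as the comparisons above. No member was called, where 1.11% of all tested genes were; at an unadjusted p under 0.05 edgeR gave 2, and DESeq2 and limma-voom each called 1. The 2 were Krt23, with a smaller fitted rise in tumors of TCM mice (-2.2 ± 0.54, adjusted p = 0.0605, edgeR), and Krt19 (3.3 ± 1.06, adjusted p = 0.121, edgeR). Krt23 was the gene called by DESeq2 (0.000896) and limma-voom (0.0299), and by edgeR without control peri-tumor 4 (-2.68, 0.0158). For Cd24a the interaction was -1.34 ± 0.68 (adjusted p = 0.33, edgeR), although it was called in tumors of control mice alone. For Sox9, Tnfrsf12a and Hes1 it was -0.06 ± 0.31, -0.09 ± 0.27 and -0.07 ± 0.24.

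Levels of different genes were set side by side per length, with the authors' FPKM. In control tumors Tnfrsf12a led with 22.6 ± 3.95 FPKM (mean ± SD, n = 4), followed by Hes1 with 9.16 ± 1.13, and neither overlapped its neighbor. Sox9 (5.33 ± 1.0), Prom1 (4.61 ± 1.15), Bicc1 (3.36 ± 0.601), Krt23 (3.3 ± 0.793) and Cd24a (2.96 ± 2.28) formed a run in which each overlapped the next. Epcam (0.351 ± 0.0845), Krt19 (0.0578 ± 0.0217) and Krt7 (0.00827 ± 0.0068) followed, each apart from its neighbors. A cytokine receptor thus stood at the top in tumors, and the classical duct keratins stood at the bottom.

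In control peri-tumor tissue Hes1 (3.36 ± 0.818 FPKM), Sox9 (2.29 ± 0.554) and Tnfrsf12a (2.27 ± 0.484) overlapped one another at the top. Below them Krt19, Cd24a, Krt23, Bicc1, Epcam, Prom1 and Krt7 ran from 0.474 down to 0.0686 FPKM, each overlapping the next. In TCM peri-tumor tissue Hes1 (4.34 ± 0.588) and Krt23 (3.81 ± 0.753) overlapped at the top, so that Krt23 had rank 2 there and rank 6 in control peri-tumor tissue. TCM tumors were led by Tnfrsf12a (14.7 ± 2.15), Hes1 (11.7 ± 0.641) and Krt23 (7.4 ± 2.01). The FPKM values imply a length of 4151 bases for Tnfrsf12a, more than its annotated span of 2024 bases. With the 1932 bases of its GENCODE exons Tnfrsf12a moved from rank 3 to rank 1 in control peri-tumor tissue. For Prom1 they imply 11504 bases, against 7175 bases of GENCODE exons. With exon lengths Prom1 moved from rank 5 to rank 3 in TCM tumors, at 7.44 CPM per kilobase beside 7.33 for Krt23, and from rank 4 to rank 3 in control tumors.

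Other genes of the bile duct epithelium, 27 of them and 20 tested, changed in part. Of all tested genes 43.2% were called in control tumors (22.0% higher) and 32.9% in TCM tumors (17.3% higher). Of the 20 listed genes, 10 rose in control tumors, none fell and 10 were not called, with a median of 0.84. In TCM tumors 12 of the 20 rose and none fell, with a median of 0.76. At an unadjusted p under 0.05 edgeR gave 1 falling gene in each treatment, and DESeq2 and limma-voom called none. Spp1, which encodes the secreted protein osteopontin, rose from 37.1 to 1780 CPM in control tumors (5.58, adjusted p = 1.13e-06, edgeR) and by 4.81 in TCM tumors. The transcription factor Sox4 rose by 3.19 and 2.28, the adhesion protein Alcam by 1.74 and 1.56, and Krt18, a keratin that hepatocytes also make, by 1.92 and 1.19. Some members of the list, named after their values were seen, had few counts. The secretin receptor Sctr had 6 or fewer counts per group, and the duct mucin Muc1 had 34 counts in control peri-tumor tissue and 3 in control tumors.

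Keratins beyond the 3 members were mostly not tested for want of counts. Of 47 other keratin genes 6 were tested, and 4 rose in tumors of each treatment, Krt18, Krt8, Krt5 and Krt20. Krt5 and Krt20 passed the filter on low counts only through tumors, so they could not have been called lower there. Of all tested genes 22.0% rose in control tumors and 17.3% in TCM tumors. None of the 6 keratins fell by edgeR at an unadjusted p under 0.05, by DESeq2 or by limma-voom. Krt8, the partner of Krt18 in hepatocytes, had 198 CPM in control peri-tumor tissue and 413 CPM in control tumors (1.06), a value left uncertain by 26.9% of words shared with other genes. Krt5, a keratin of basal epithelia, had 2 counts in control peri-tumor tissue and 385 in control tumors, and 0 and 161 in TCM mice. Krt20, a keratin of gut epithelium, had 0 and 125 counts in control and 7 and 425 in TCM mice. In treated against control tumors Krt18 fell by 0.52 (adjusted p = 0.0426, edgeR), while Krt23 rose.

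Of 13 other progenitor and fetal liver genes 8 were tested. In control tumors 4 rose and 1 fell, and in TCM tumors 5 rose and 1 fell, with medians of 1.94 and 2.19. By limma-voom 3 rose and 2 fell in control tumors, and 3 rose and 1 fell in TCM tumors, while DESeq2 gave the edgeR counts. The shares of all tested genes called were 43.2% (22.0% higher and 21.2% lower) and 32.9% (17.3% higher and 15.6% lower). Itga6, an integrin of progenitor cells, rose by 4.01 and 3.16 in the 2 treatments, and the fetal genes Afp and Gpc3 rose by 6.83 and 7.28 in control tumors. Lgr5, a Wnt-driven stem cell receptor that pericentral hepatocytes also express, fell by 2.49 and 2.16. Adjusted p of these 4 genes in control tumors ran from 1.22e-06 to 0.000864 (edgeR). Foxl1 and Lin28b had 0 counts in all 16 libraries, which allows up to 3 counts over a group, and Dlk1 had 0 to 2 counts per group.

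Around Hes1, 22 of 24 further Notch pathway genes were tested, and 12 rose and 3 fell in control tumors, against 9 and 2 in TCM tumors. The medians were 0.56 and 0.36, and of all tested genes 43.2% were called in control tumors and 32.9% in TCM tumors. The receptor Notch3 rose from 2.19 to 13.3 CPM in control tumors (2.59) and by 1.82 in TCM tumors, and the feedback inhibitor Nrarp, itself a Notch target, rose by 2.5 and 1.66. Notch1 rose by 1.26 in control tumors (adjusted p = 0.000115, edgeR) and had 0.45 in TCM tumors (adjusted p = 0.0937). Its interaction of -0.81 ± 0.28 was not called (adjusted p = 0.149, edgeR). Hes6, a relative of Hes1 known to oppose it, fell by 2.06 and 1.05. In treated against control peri-tumor tissue 3 of the 22 were called, a share close to the 14.1% of all tested genes. Nrarp rose (1.5, adjusted p = 0.00464, edgeR), and Hes6 (-0.84, 0.0432) and Dll1, a Notch ligand named after its value was seen (-0.9, 0.0361), fell. No falling gene was called there without control peri-tumor 1, 2 or 3 or TCM peri-tumor 1 or 3, with no filter, or with only the groups compared. In tumors none of the 22 was called between treatments, with 2 higher and 4 lower at an unadjusted p under 0.05 (edgeR), 1 lower by DESeq2, and 1 higher and 2 lower by limma-voom.

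Around Tnfrsf12a, all 14 genes listed for TWEAK and NF-kappaB signaling were tested. In control tumors 6 rose and 2 fell, and in TCM tumors 7 rose and 2 fell, with medians of 0.45 and 0.33. The shares of all tested genes called were 43.2% and 32.9%. Nfkb2 and Relb, the subunits of noncanonical NF-kappaB, rose by 1.47 and 1.43 and by 1.74 and 1.77 in the 2 treatments (adjusted p 6.04e-08 to 1.64e-05, edgeR). Map3k14, a kinase of the same arm named after its value was seen, rose by 0.65 and 0.6 (adjusted p = 0.0128 and 0.0275, edgeR). Chuk, another kinase of this arm named after its value was seen, had -0.17 in control tumors (adjusted p = 0.198, edgeR). It fell by 0.52 in TCM tumors (0.00138), and its interaction of -0.35 ± 0.15 was not called (0.24). Traf2 and Traf3 were not called in tumors of either treatment. Nfkb1 rose by 0.8 and 0.53, and the inhibitor Nfkbia fell by 0.55 and 0.45. The ligand Tnfsf12, named after its value was seen, went against its receptor in control mice. It fell from 20.8 to 13.3 CPM in control tumors (-0.64, adjusted p = 0.00368, edgeR), and had 13.0 and 14.2 CPM in the TCM tissues (0.13, adjusted p = 0.558). Its interaction of 0.78 ± 0.22 was not called (adjusted p = 0.0886, edgeR). In treated against control peri-tumor tissue 3 of the 14 genes were called, where 14.1% of all tested genes were. Tnfsf12 fell by 0.68 (adjusted p = 0.0119, edgeR) and Traf5 by 0.75 (0.0399), while Chuk rose by 0.61 (0.00257). Macrophage markers were lower there too.

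**Figure D4:**
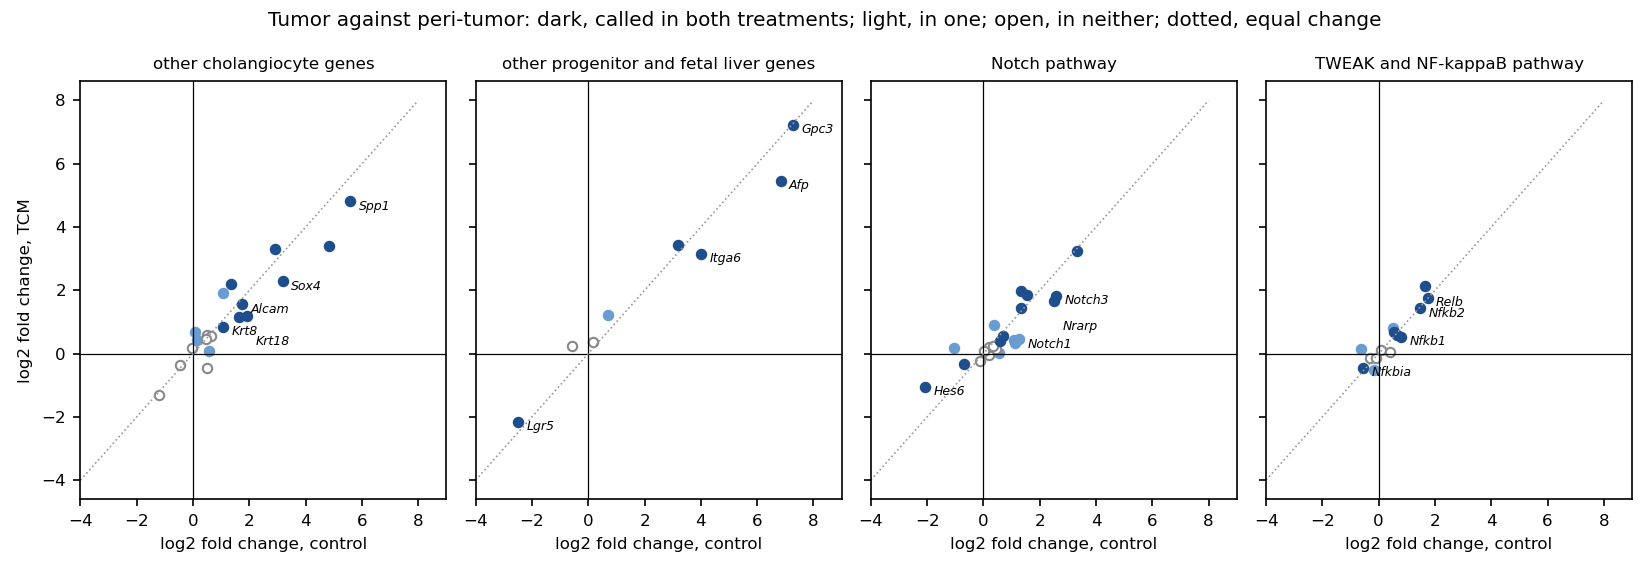
Log2 fold change of tumor against peri-tumor tissue in control mice (horizontal axis) and TCM mice (vertical axis) for the tested genes of 4 lists; dark points are called in both treatments, light in 1, open in neither, and the dotted line marks equal change. Spp1, Itga6, Afp and Gpc3 lie far up in both treatments, while Hes6 and Lgr5 lie below 0 in both.

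Markers of other cell types were counted in the same comparisons. Between control tumors and peri-tumor tissue, where 43.2% of all tested genes were called, 10 of 15 hepatocyte markers fell and 2 rose (median -1.62). Their median summed level was 108000 CPM in control peri-tumor tissue and 140000 CPM in control tumors, with overlapping ranges. The 2 that rose, named after their values were seen, were Alb (0.6, adjusted p = 0.0491, edgeR) and Apoa1 (0.89, adjusted p = 0.0185, edgeR). The 2 rises went to 0 when either library of control mouse 1 or of control mouse 2 was left out, and with only the groups compared, while the 10 falls were counted in each of these fits. Of 5 macrophage markers 4 fell. Of 9 stellate cell and fibroblast markers 4 rose and 2 fell, with a median summed level of 158 CPM in control peri-tumor tissue and 304 CPM in control tumors. Of 6 tested gut epithelium markers 4 rose, among them Cdh17 and Krt20, while Cdx1, Cdx2 and Muc2 had 0 counts in control tissues. Krt20 passed the filter on low counts only through tumors. Cdh17 had 36 counts in control peri-tumor tissue and 8949 in control tumors. Endothelial markers (2 higher and 2 lower of 8), erythroid markers (2 lower of 4 tested) and mesothelial markers (1 higher of 2 tested) were called at shares near that of all genes. The mesothelial call was lost without control peri-tumor 1 or 2, control tumor 4 or control mouse 4, and the erythroid falls numbered 1 to 3 over the fits with a library left out. None of the 3 tested B cell markers, 2 neutrophil markers or 1 exocrine pancreas marker was called in this comparison by edgeR, with 1 neutrophil marker higher at an unadjusted p under 0.05, none called by DESeq2, and 1 B cell marker lower and the pancreas marker higher by limma-voom. Between treatments, 4 of 5 macrophage markers fell in peri-tumor tissue (median -1.39), where 14.1% of all tested genes were called. Their summed level there was 251 to 557 CPM in control and 155 to 177 CPM in TCM mice. In treated against control tumors 1 of the 5 fell (median summed level 126 CPM in control and 84.2 CPM in TCM tumors), and that call was lost with no filter, with only the groups compared, with the block, and without control tumor 1, 2 or 4, TCM tumor 3 or 4 or control mouse 4. The part of these cell types in the rises and falls of the 10 genes, Tnfsf12 and the Notch genes was not tested.

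For each tested member the 2 genes with the most similar profile over the 16 libraries were sought, by the root-mean-square difference of log2 CPM after each gene's mean was removed. Sox9 was closest to Ccdc125 (0.19) and Anpep (0.2), Hes1 to Glud-ps (0.25) and Smc2 (0.29), and Tnfrsf12a to Pold4 (0.33) and Smox (0.37). Bicc1 was closest to Abcc5 and Itpr3 (0.35 each), Epcam to Tmem138 (0.38) and Pigf (0.39), and Prom1 to Tlr1 (0.5) and Sytl5 (0.51). Cd24a was closest to Ahnak (0.45) and Anxa1 (0.53), Krt19 to BC024139 (0.66) and Eef2k (0.68). Krt23 was closest to Idi1 (0.65), an enzyme of the sterol pathway, and Chrna4 (0.69). Idi1 had 21.5, 96.4, 70.9 and 179 CPM in control peri-tumor, control tumor, TCM peri-tumor and TCM tumor tissue, the same order of groups as Krt23 except that control tumors lay above TCM peri-tumor tissue.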

How the data were processed

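RNA of 16 libraries was isolated with the mirVana kit and sequenced from VAHTS stranded libraries, per the labels' protocols. The deposited counts are whole reads per gene, not scaled by the authors, per the file headers and the values. The deposited FPKM values are the authors' counts per gene length and library total, and checked against the counts they deviated by at most 0.00426% over 14703 genes. Both mm9 and mm10 appear as builds in the submitters' processing notes. Aligner, counter and counting strand: not given in the sources used here. Rows without a gene symbol (115, at most 0.0171% of a library) stayed in the table. No per-sample columns were left unused.

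Counts were fitted with edgeR 4.0.16 (R 4.3.3): TMM factors, filterByExpr (count minimum 10), 1 mean per group, 16 libraries, 12 residual degrees of freedom and 14865 tested genes. Listed genes with few counts in peri-tumor tissue, such as Krt5, Krt20, Jag2 and Igf2bp3, passed the filter only through tumors. They could not have been called lower in tumors. Log2 CPM used a prior count of 2. SD is over 4 libraries. Intervals (95%) and the floor of 3 counts cover counting error only.

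Alternatives were DESeq2 1.42.0, limma-voom with sample weights (limma 3.58.1), RLE factors, no filter and 1 CPM in 4 libraries. The weights let limma-voom count more variable libraries less. Further alternatives were only the groups compared, a replicate block, each library left out and control mouse 4 left out. Animal codes pair the 2 tissues of each mouse. The block was the mouse in the tumor comparisons and the interaction, and the replicate number in the treatment comparisons. With group means removed, libraries of 1 mouse correlated at 0.0433 to 0.235, and 7 of 8 mice matched themselves best.

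The members and all lists were chosen with earlier results of these data known. Beside the members, the rule named up to 4 genes per list, those with the lowest p in control tumor against peri-tumor tissue and 1 CPM or more as the larger group mean, and the 2 genes of most similar profile per member (mean of at least 1 CPM, no Gm or Rik symbol). Lists covered cholangiocyte, progenitor, Notch, TWEAK, keratin, hepatocyte, mesothelial, stellate, endothelial, B cell, neutrophil, erythroid, macrophage, gut and pancreas genes. Some genes of these lists are not reported by name here. GENCODE M21 gave positions and RefSeq (GRCm38.p6) promoters.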

Additional observations from a re-analysis of the deposited data

Results flagged for a closer look

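Of 40 groups of 4 libraries checked with Dixon's test at the 95% level, 5 held a library far from the other 3, and chance flags about 1 in 20 groups. Epcam was low in control peri-tumor 4, with 0.14 CPM against 0.828 to 0.954 CPM in the others, on 2 counts. Prom1 was high in TCM peri-tumor 3, with 3.7 CPM against 0.727 to 1.09 CPM. Hes1 was high in the same library, with 18 CPM against 11.7 to 12.5 CPM, and low in control tumor 4, with 19.4 CPM against 26 to 27.1 CPM. Tnfrsf12a was high in TCM peri-tumor 4, with 9.08 CPM against 5.87 to 6.35 CPM.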

How the results depend on the processing

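With each library left out, 8 to 9 members were called in control tumors, 5 to 6 in TCM tumors, 1 in treated peri-tumor tissue, 0 to 2 in treated tumors and 0 to 1 for the interaction (edgeR). In treated peri-tumor tissue DESeq2 and the replicate block called 2 members each. In treated tumors 0 members were called with no filter, 1 with only the groups compared and 1 with the block. For the interaction DESeq2, limma-voom and the fit without control mouse 4 called 1 each. Over all genes, treated peri-tumor tissue gave 3349 calls by limma-voom, 3434 without control mouse 4 and 1101 to 3225 with a library left out. Treated tumors gave 1805 (DESeq2), 2193 (limma-voom), 686 (no filter), 1877 (without control mouse 4) and 404 to 1523 (a library left out). In the same order the interaction gave 806, 603, 79, 714 and 58 to 665, and 107 with the mouse as a block.

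Signs turned only for differences that were not called. Apart from left-out libraries, these were Sox9 in treated tumors with only the groups compared (-0.01), Prom1 in treated tumors with the replicate block (-0.05), and the Hes1 interaction by limma-voom (0.03) and without control mouse 4 (0.01). With a library left out, Krt19 in TCM tumors ran from -0.28 to 1.19. In treated peri-tumor tissue Sox9 ran from -0.17 to 0.27, Bicc1 from -0.32 to 0.07, Prom1 from -0.17 to 0.89 and Cd24a from -0.45 to 0.07. In treated tumors Sox9 ran from -0.1 to 0.14 and Prom1 from -0.14 to 0.29. Interactions ran from -0.26 to 0.17 (Sox9), -0.8 to 0.26 (Prom1), -0.19 to 0.09 (Tnfrsf12a) and -0.15 to 0.09 (Hes1). The cause was not tested.

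Control and TCM mice share only replicate numbers, and same-numbered libraries correlated at -0.101 to 0.111. With that number as a block, Hes1 was called in treated peri-tumor tissue (adjusted p = 0.046, edgeR) and Cd24a was not called in treated tumors (-1.44, adjusted p = 0.0796). With the mouse as a block no call of a member in the tumor comparisons changed. Krt19 could not be tested with the filter of 1 CPM in 4 libraries or with only the groups compared. Members' ranges did not overlap in 135 of 180 pairs by FPKM, 133 by CPM per kilobase and 137 with GENCODE exon lengths, an alternative chosen after seeing the data. Counts under 30 in every library limit Krt7, Krt19 and Epcam. They were also under 30 in all control peri-tumor libraries for Krt23 (1 to 16) and Prom1 (8 to 24). The same held for Cd24a in TCM peri-tumor tissue (13 to 22). For Prom1 the ratio of counts, control peri-tumor over tumor, was 0.0203 (95% counting interval 0.0155 to 0.026). For Krt23, control over TCM peri-tumor tissue, it was 0.0902 (0.0622 to 0.127).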
